A study of Saccharomyces cerevisiae with 12 samples.

Results

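The genes described here are the medium-chain dehydrogenase relatives of ZTA1 in budding yeast, a set of 9 named genes among 5594 measured. They were chosen by family, as YCR102C, YLR460C, YNL134C, AST1, AST2, YIM1, ETR1, BDH1 and BDH2, with ZTA1 itself left out. Each had 1 probe, and none of these probes carried a RefSeq accession that a probe of another gene also carried. The question was whether any relative is raised or lowered when ZTA1 is lost.

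The study compared a strain lacking ZTA1 (YBR046C), called ∆zta1, with its wild type FY834α on 2-colour Agilent expression arrays. Both strains grew exponentially in rich YPD medium. Of the 6 pairs of cultures, 3 were untreated and 3 received 10 mM hydrogen peroxide (H2O2) for 30 min in both strains. Dye-swapped duplicates gave 2 arrays for each pair, 12 in all, and no array set treated against untreated cells. The labels give no other allele and do not say how the deletion was made. They also do not state how many independent deletants were used.

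Medium-chain dehydrogenases and reductases are a large family of enzymes that pass hydride between a nicotinamide cofactor and an alcohol, aldehyde, quinone or enoyl substrate. ZTA1 encodes yeast zeta-crystallin, an NADPH-dependent quinone oxidoreductase of that family. Some relatives keep such an enzyme activity, as ETR1 and BDH1 do, while others such as AST1 are known for a role in membrane traffic.

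All values below are log2 ratios of ∆zta1 over wild type, so that 0 means equal levels and a negative value a lower level in ∆zta1. A pair's value is the mean of its 2 arrays. A gene passed where limma's Benjamini-Hochberg adjusted p over all 5594 genes was under 0.05. ZTA1 was low in all 6 pairs, between -5.84 and -4.32, and below 0 on all 12 arrays. The untreated replicate 2 stood apart from the other pairs, with 20 genes changed by more than 2-fold against 4 or 5 in each of the others. Counts of passing relatives, and the untreated mean ratios that it moved by more than 1.5 times, are therefore given without it as well. The medians of 6 a-cell marker genes ranged from -0.17 to 0.030 over the pairs, those of 4 alpha-cell marker genes from -0.18 to 0.29, and none of these 10 genes passed in any comparison.

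None of the 9 relatives passed in any comparison. In untreated cells 0 of 9 passed by limma, beside 0.197% of all genes, and 1 of 9 had an unadjusted p under 0.05, beside 3.65% of all genes. Under H2O2 0 of 9 passed, beside 0.215% of all genes, and 0 of 9 had such an unadjusted p, beside 8.29%. For the mean of both treatments 0 of 9 passed, beside 0.286%, and 2 of 9 had such an unadjusted p, beside 9.46%. A count of 0 among 9 genes is near these background shares, so the ratios and their intervals follow for each gene. Without untreated replicate 2 the count was again 0 of 9 in each comparison.

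The ratios were small and lay mostly below 0. The median over the relatives was -0.038 in untreated cells and -0.057 under H2O2, where the medians over all genes were 0.00052 and -0.0023. In either treatment 8 of the 9 mean ratios were below 0, beside 49.4% of all genes in untreated cells and 52.1% under H2O2. Over both treatments 9 of 9 were below 0, beside 51.8% of all genes. The exceptions in single treatments were YIM1 in untreated cells at 0.011 and AST2 under H2O2 at 0.00090. The lean over both treatments was not particular to the relatives. In the 5 lists of other genes described below, 8 of 10, 9 of 11, 6 of 8, 4 of 6 and 7 of 9 were below 0 over both treatments. In the same order the counts were 6, 9, 4, 5 and 7 in untreated cells and 6, 6, 6, 3 and 5 under H2O2. No relative differed by more than 2-fold in any pair, and the largest ratio in any pair, that of YNL134C in H2O2 replicate 3, stood for a 1.29-fold lower level. In bulk cultures a smaller share of cells with a transcript and a lower level per cell cannot be told apart.

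**Figure D1:**
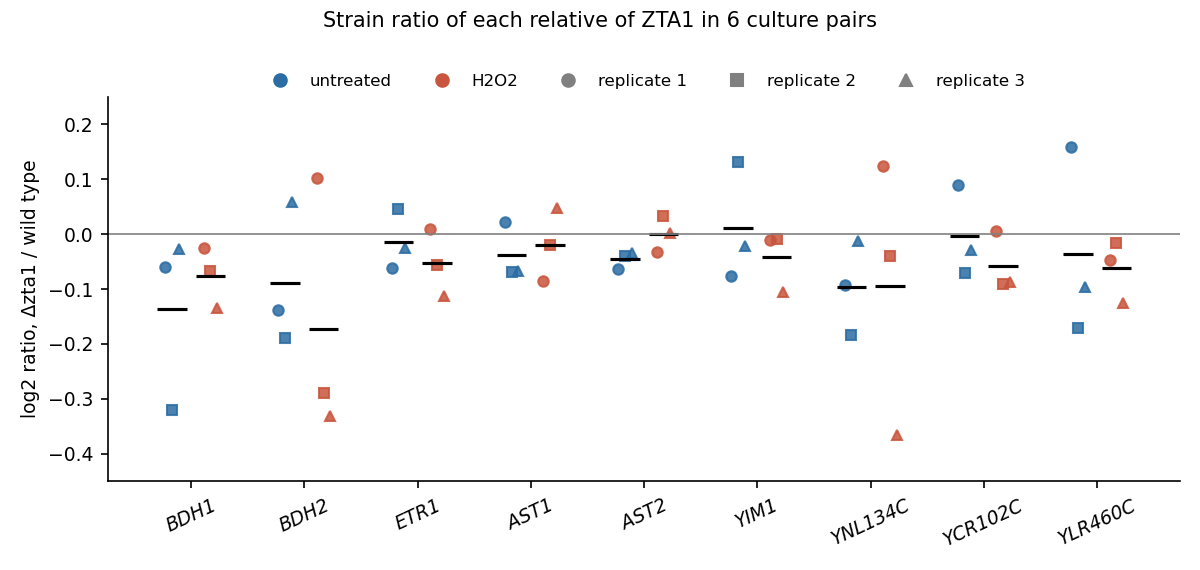
Log2 ratio of ∆zta1 over wild type for the 9 relatives (horizontal axis) in the 3 untreated pairs (blue) and the 3 H2O2 pairs (red). Marker shapes give the replicate, black lines the mean of a treatment. Most points lie between -0.2 and 0.2, and the lowest, YNL134C in H2O2 replicate 3, is at -0.37.

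The butanediol dehydrogenases had the lowest ratios of the set for the mean of both treatments. BDH1 (YAL060W) encodes the enzyme that interconverts acetoin and butanediol, and BDH2 (YAL061W) is its neighbour on chromosome I and a close relative. BDH1 stood at -0.060, -0.32 and -0.028 in untreated replicates 1, 2 and 3, and at -0.025, -0.067 and -0.14 in the H2O2 replicates. It was the only relative below 0 in all 6 pairs, as 3.74% of all genes were, and the lowest value came from untreated replicate 2. The treatments overlapped.

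The mean ratio of BDH1 was -0.14 ± 0.054 (limma SE, n = 3 pairs) in untreated cells, a change of -9.01% with a 95% interval from -16.5% to -0.884% (limma adjusted p = 0.999, unadjusted p = 0.0342). Over both treatments it was -0.11 ± 0.038 (limma adjusted p = 0.480), which ranked 256 among 5594 genes by p. Without untreated replicate 2 the ratio was -0.044 in untreated cells (limma adjusted p = 1.0) and -0.060 over both treatments (adjusted p = 0.500). The untreated estimate thus shrank more than 1.5 times when that pair was left out. Under H2O2 the mean was -0.076 ± 0.054 (limma SE, n = 3 pairs, adjusted p = 0.702).

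BDH2 had ratios of -0.14, -0.19 and 0.058 in the untreated replicates and of 0.10, -0.29 and -0.33 in the H2O2 replicates. Within either treatment 1 pair lay above 0 and the other 2 below it. Under H2O2 the mean was -0.17 ± 0.080 (limma SE, n = 3 pairs, adjusted p = 0.605), the lowest treatment mean of any relative. That corresponds to -11.3%, with an interval from -21.9% to 0.671%. Without H2O2 replicate 1 it was -0.31 (limma adjusted p = 0.259), without replicate 2 it was -0.11 and without replicate 3 it was -0.094, so its size depended on single pairs. In untreated cells the mean of -0.089 became -0.040 without untreated replicate 2 and -0.16 without untreated replicate 3.

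The 2 genes sit side by side, and their ratios were about as far apart as in a typical pair of relatives. The root mean square difference between them over the 6 pairs was 0.15, which ranked 22 among the 36 pairs of relatives from most to least alike, with a median of 0.13. This measure grows with a gene's own spread, and that of BDH2 was the largest of the relatives. Its pairs with other relatives ranked from 11, with YNL134C, to 36, with AST1. The rank therefore does not show whether the neighbours run together. BDH1 and BDH2 had the same sign in 4 of 6 pairs. ECM1, the measured gene on the far side of BDH1, stood at 0.047 over both treatments, and GDH3, the glutamate dehydrogenase gene beyond BDH2, at -0.044. Neither passed in any comparison.

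ETR1 (YBR026C) encodes the 2-enoyl thioester reductase of mitochondrial fatty acid synthesis, the pathway that supplies lipoate and on which respiratory growth depends. Its ratios were -0.061, 0.045 and -0.025 in untreated cells and 0.0094, -0.056 and -0.11 under H2O2. Values on both sides of 0 occurred in either treatment. The untreated mean of -0.014 became -0.043 without untreated replicate 2 and 0.010 without untreated replicate 1. The mean over both treatments was -0.033 ± 0.025 (limma SE, n = 6 pairs, adjusted p = 0.670), with an interval from -6.01% to 1.58%. ETR1 lies on chromosome II with ZTA1, with 22 annotated genes between them, and neither of its own measured neighbours, OLA1 and YPK3, passed.

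AST1 (YBL069W) and AST2 (YER101C) form a paralogous pair. AST1 is a peripheral membrane protein that helps to deliver the plasma membrane proton pump Pma1 to the cell surface, and AST2 can stand in for it when overproduced. AST1 had ratios of 0.023, -0.069 and -0.068 in untreated cells and of -0.085, -0.020 and 0.047 under H2O2. The untreated mean of AST1, -0.038, became -0.023 without untreated replicate 2. AST2 had -0.063, -0.040 and -0.035 in untreated cells and -0.032, 0.032 and 0.0026 under H2O2. Over the 6 pairs AST1 ranged from -0.085 to 0.047 and AST2 from -0.063 to 0.032, on both sides of 0.

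For AST2 all 3 untreated pairs lay below all 3 H2O2 pairs, by a narrow margin. It was the only relative whose treatments did not overlap, which 5.54% of all genes showed. The difference H2O2 minus untreated was 0.047 ± 0.040 (limma SE, adjusted p = 0.999) and did not pass. AST2 was the most tightly measured relative: its SD between pairs of one treatment, pooled over both, was 0.025, and 4.74% of genes had a smaller one. Its mean over both treatments, -0.022 ± 0.020 (limma SE, n = 6 pairs, adjusted p = 0.712), had an interval from -4.59% to 1.60%.

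YIM1 (YMR152W) encodes a protein linked to the response to DNA damage. It stood at -0.076, 0.13 and -0.022 in untreated cells and at -0.010, -0.0093 and -0.10 under H2O2. Only untreated replicate 2 lay above 0. The mean was 0.011 ± 0.043 in untreated cells (limma SE, adjusted p = 0.999) and -0.041 ± 0.043 under H2O2 (adjusted p = 0.815), the former turning to -0.049 without untreated replicate 2.

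YNL134C encodes an aldehyde reductase. Its ratios were -0.092, -0.18 and -0.012 in untreated cells and 0.12, -0.040 and -0.37 under H2O2. The H2O2 pairs thus spanned the whole range seen for this gene, from its highest to its lowest value. The mean was -0.096 ± 0.078 in untreated cells (limma SE, n = 3 pairs, adjusted p = 0.999) and -0.094 ± 0.078 under H2O2 (adjusted p = 0.756). Without untreated replicate 2 the untreated mean was -0.052 (limma adjusted p = 1.0). Under H2O2 the mean became 0.043 without replicate 3, -0.12 without replicate 2 and -0.20 without replicate 1. Its direction there thus depended on replicate 3.

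YCR102C and YLR460C are uncharacterised members of the family that lie near chromosome ends, each with 5 annotated genes between it and the end of chromosome III or XII. YCR102C had ratios of 0.089, -0.071 and -0.028 in untreated cells and 0.0059, -0.091 and -0.087 under H2O2. YLR460C had 0.16, -0.17 and -0.096 in untreated cells and -0.047, -0.016 and -0.13 under H2O2. Both were highest in untreated replicate 1 and agreed in sign in 5 of 6 pairs. Other relatives agreed as often, such as YLR460C with BDH1 and YNL134C with ETR1. Since the probe sequences were not used here, signal shared between such close paralogues was not tested.

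Neither subtelomeric gene passed. In untreated cells the means were -0.0032 ± 0.038 for YCR102C and -0.036 ± 0.057 for YLR460C (limma SE, n = 3 pairs, adjusted p = 0.999 for both). Under H2O2 they were -0.057 (limma adjusted p = 0.691) and -0.062 (adjusted p = 0.778). For YCR102C the untreated mean was 0.030 without untreated replicate 2, 0.0092 without replicate 3 and -0.049 without replicate 1. For YLR460C it was 0.031 without untreated replicate 2, -0.0066 without replicate 3 and -0.13 without replicate 1 (limma unadjusted p = 0.0153, adjusted p = 0.600). The direction of either mean in untreated cells thus depended on which pairs were included. PAU3 and PAU4, the seripauperin genes on the telomere side of YCR102C and YLR460C, stood at 0.018 and 0.0085 over both treatments.

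**Figure D2:**
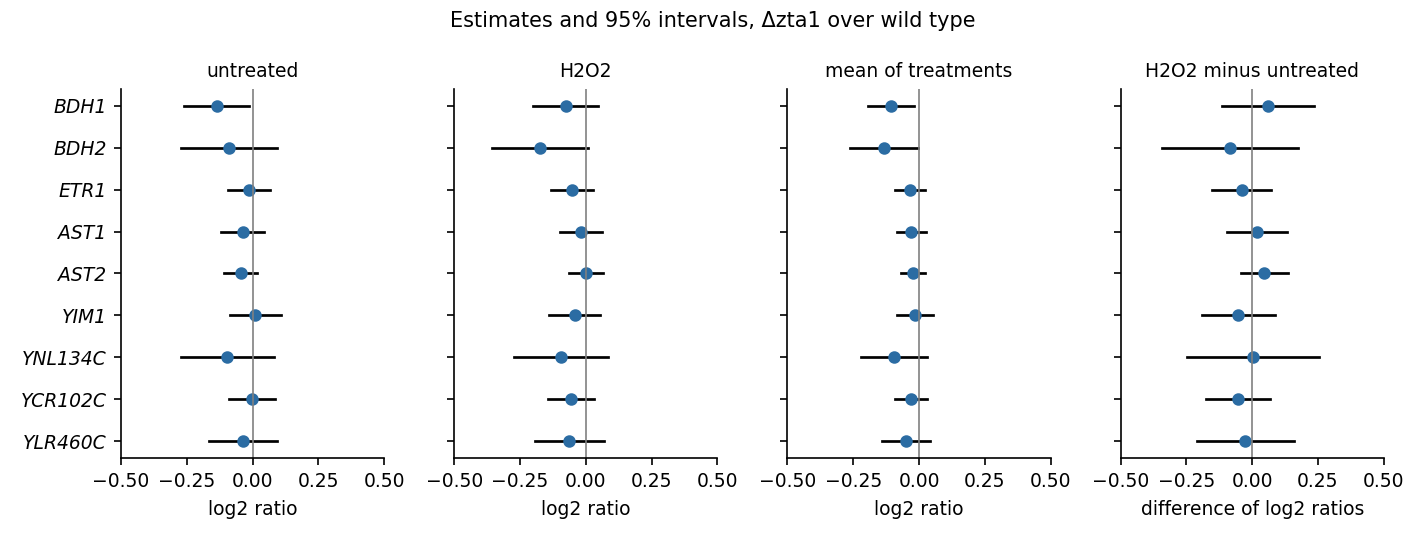
Estimated log2 ratio (points) with its 95% interval (lines) for each relative, in untreated cells, under H2O2, for the mean of both treatments and for the difference H2O2 minus untreated. The intervals of BDH1 in untreated cells and of BDH1 and BDH2 for the mean exclude 0 before any adjustment over genes, and the other 33 include it.

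The intervals bound the size of each change. Taken over the relatives, the unadjusted 95% intervals ran from 0.827-fold to 1.08-fold in untreated cells and from 0.781-fold to 1.06-fold under H2O2. For the mean of both treatments they ran from 0.835-fold to 1.04-fold. An increase of any relative by more than 1.08-fold therefore lay outside its interval in either treatment. The upper end in untreated cells belonged to YIM1 and that under H2O2 to YNL134C, while the lower ends belonged to YNL134C and BDH2. Each interval holds for a single gene, not for the relatives jointly, and uses 1 spread shared by both treatments. The measured spreads differed. The SD between untreated pairs and between H2O2 pairs was 0.085 and 0.25 for YNL134C, and 0.17 and 0.056 for YLR460C. An interval can thus be too narrow in the treatment with the larger spread.

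The size a gene needed in order to pass differed between the relatives through their spread. At the largest p that passed in untreated cells, AST2 would have needed a log2 ratio of 0.20 in size and BDH2 one of 0.58. For the mean of both treatments these sizes were 0.13 and 0.38. The pooled SD between pairs was above the median of all genes, 0.061, for 6 of the 9 relatives. It was 0.19 for BDH2 and for YNL134C, where 97.4% and 97.2% of genes had a smaller one, and 0.13 for YLR460C and 0.12 for BDH1.

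Whether peroxide alters the effect of losing ZTA1 on a relative was asked by the difference of the 2 strain ratios. None of the 9 passed (limma adjusted p = 0.999 for each), 0 of 9 had an unadjusted p under 0.05 beside 1.27% of all genes, and 0.0% of all genes passed. The differences ran from -0.084 for BDH2 to 0.060 for BDH1, with 5 below 0. Without untreated replicate 2 these became -0.13 and -0.032, and that of BDH1 changed sign. Their intervals ran from 0.789-fold to 1.19-fold, so larger differences lay outside them.

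Single arrays showed a dye effect on several relatives as large as or larger than the strain ratios. AST1 was the clearest case. With ∆zta1 in Cy5 its ratio lay between -0.21 and -0.058 on all 6 arrays, and with ∆zta1 in Cy3 between 0.042 and 0.17 on all 6. The orientations did not overlap, as for 26.0% of all genes. The means of -0.16 and 0.10 nearly cancelled in the pairs, which left -0.029 ± 0.025 over both treatments (limma SE, n = 6 pairs, adjusted p = 0.711).

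Fits of a single dye orientation called AST1 in opposite directions. On the Cy5 arrays alone it passed as lower over both treatments (-0.16, limma adjusted p = 0.0053), and on the Cy3 arrays alone as higher (0.10, limma adjusted p = 0.0229). BDH1 passed as lower on the Cy5 arrays alone (-0.18, limma adjusted p = 0.0090) but stood at -0.028 on the Cy3 arrays. Of the relatives, 6 had the Cy5 ratio on the same side of the Cy3 ratio in all 6 pairs, beside 57.9% of all genes. They were AST1, BDH1, YNL134C, YLR460C and YIM1 with the Cy5 ratio lower, and ETR1 with the Cy5 ratio higher.

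BDH2 had a mean below 0 in either dye orientation, at -0.10 on the Cy5 arrays and -0.16 on the Cy3 arrays. So did BDH1, YNL134C and AST2, with means of -0.028, -0.028 and -0.00066 on the Cy3 arrays. In H2O2 replicates 2 and 3 BDH2 lay between -0.41 and -0.24 on all 4 arrays, and in H2O2 replicate 1 it was 0.10 on both. The split between these cultures was thus present in either orientation. The same held for YNL134C, which was -0.44 and -0.29 on the 2 arrays of H2O2 replicate 3 and 0.064 and 0.19 on those of H2O2 replicate 1.

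**Figure D3:**
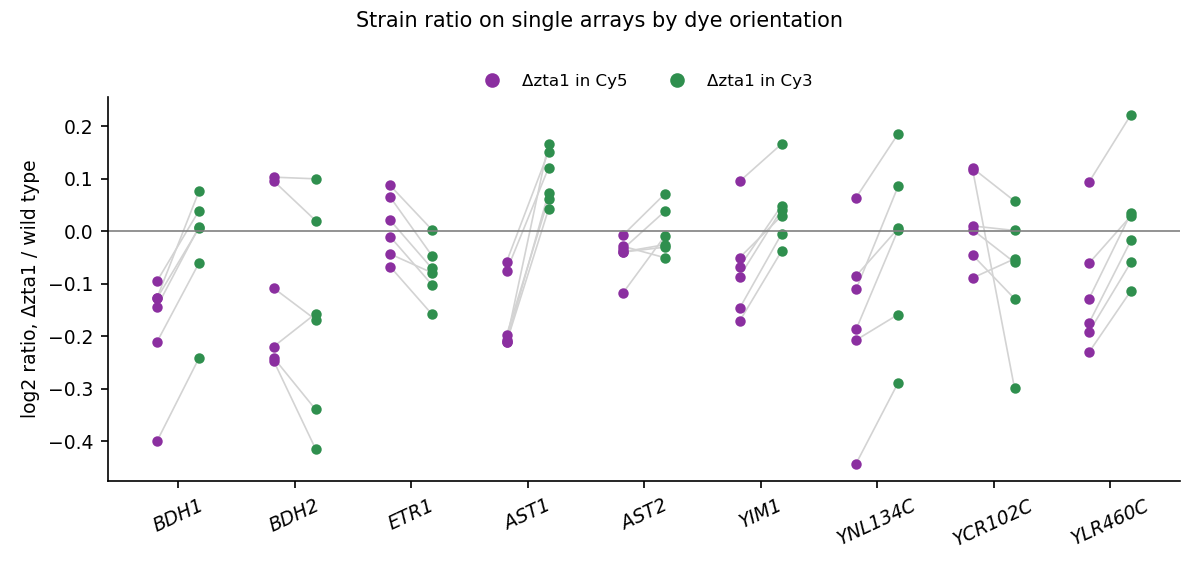
Log2 ratio of ∆zta1 over wild type on each of the 12 arrays, for the 9 relatives, with ∆zta1 labelled in Cy5 (purple) or Cy3 (green). Grey lines join the 2 arrays of a pair. The AST1 arrays separate by dye, with all Cy5 values below 0 and all Cy3 values above it.

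Among the relatives, the ratios of paralogues were close in some cases. The root mean square difference over the 6 pairs was 0.053 between AST1 and AST2 and 0.070 between YCR102C and YLR460C, which ranked 2 and 3 among the 36 pairs. YIM1 and ETR1, which are not known as close paralogues, were the nearest at 0.041. Genes whose ratios all lie near 0 are near each other by this measure, so a small difference is a description only.

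The genes whose ratios lay nearest to BDH1, the relative with the smallest p over both treatments, were ELO1 (root mean square difference 0.026), YAP1801 (0.034) and MET28 (0.043). They encode a fatty acid elongase, a clathrin assembly factor and a regulator of sulfur metabolism. All 3 had their lowest ratio in untreated replicate 2, at -0.33, -0.28 and -0.36, as BDH1 did. They were picked from all genes for closeness over these same pairs, so the shared pattern is built in by the choice. None passed over both treatments (limma adjusted p = 0.480 to 0.532).

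BDH2 and YNL134C were compared in the same way after their values were seen, since they varied most between cultures. The genes nearest to BDH2 were GPX2, a glutathione peroxidase (0.058), GLC3, the glycogen branching enzyme (0.064), and GPD1, a glycerol 3-phosphate dehydrogenase (0.087). In H2O2 replicate 3 these stood at -0.22, -0.33 and -0.37. The genes nearest to YNL134C were HSP31, a chaperone and glyoxalase (0.057), APE1, a vacuolar aminopeptidase (0.059), and SOL4, a 6-phosphogluconolactonase (0.060). They stood at 0.11, 0.15 and 0.073 in H2O2 replicate 1 and at -0.24, -0.41 and -0.32 in H2O2 replicate 3, while none passed over both treatments. The likeness to BDH2 or YNL134C again follows from how the genes were picked.

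**Figure D4:**
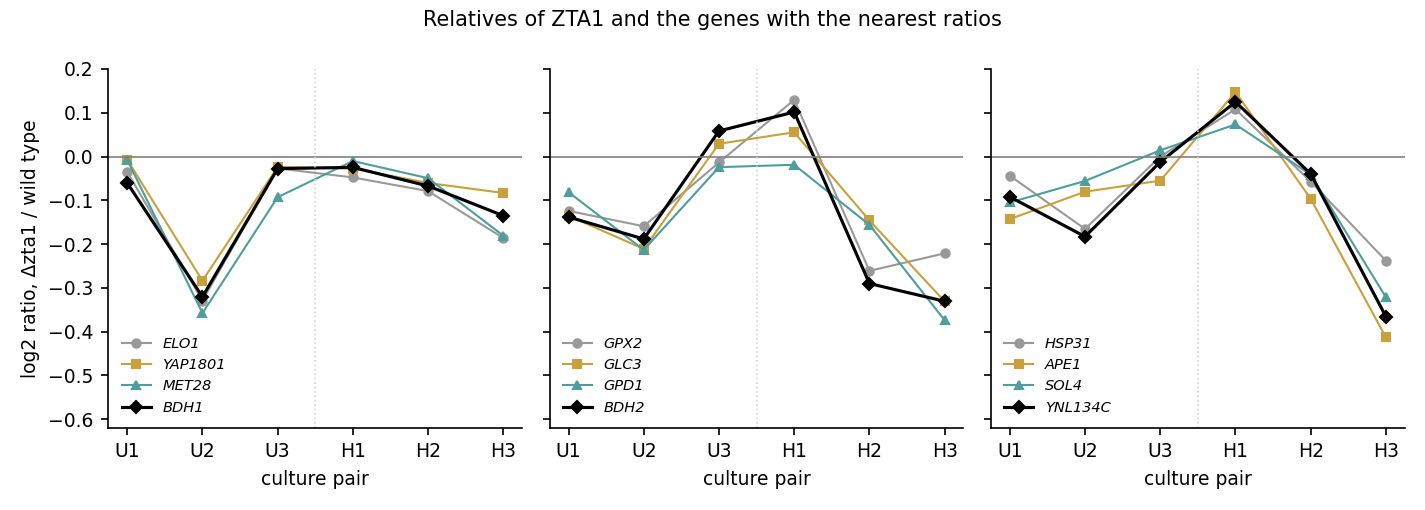
Log2 ratio of ∆zta1 over wild type in the untreated (U1 to U3) and H2O2 (H1 to H3) pairs for BDH1, BDH2 and YNL134C (black) and the 3 genes nearest to each. Lines only join the values of a gene, since replicates have no order. BDH1 and its nearest genes are lowest in U2, at -0.28 to -0.36, and YNL134C and its nearest genes are highest in H1 and lowest in H3. The nearest genes were picked for closeness over these pairs, so the likeness is built in.

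Genes that work beside the relatives were followed as 5 lists with 44 measured members, none of which passed in any comparison. The listed zinc-dependent alcohol and polyol dehydrogenases, further members of the family in yeast, had 0 of 10 passing. Their median was -0.012 over both treatments, where the median of all genes was -0.0017. ADH5, a minor alcohol dehydrogenase, had the largest mean ratio in size at -0.22 ± 0.098 (limma SE, n = 6 pairs, adjusted p = 0.536). It stood at 0.055, -0.90 and -0.26 in the untreated pairs and between -0.099 and -0.048 in the H2O2 pairs. Untreated replicate 2 thus weighed most in its mean, followed by untreated replicate 3. ADH7, an NADPH-dependent alcohol dehydrogenase encoded near YCR102C, was below 0 in all 6 pairs with a mean of -0.053 (limma adjusted p = 0.518).

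Around ETR1, 0 of 11 genes of mitochondrial fatty acid and lipoate synthesis passed, with a median of -0.025 over both treatments. MCT1, the malonyl transferase of that pathway, stood at -0.052 and LIP5, the lipoate synthase, at -0.050. Around AST1, 0 of 8 genes of the plasma membrane ATPase and its delivery passed, with a median of -0.013. PMA1, the proton pump itself, was below 0 in all 6 pairs, between -0.17 and -0.034, with a mean of -0.081 ± 0.024 (limma SE, adjusted p = 0.469). PTK2, a kinase that activates the pump, stood at -0.092 (limma adjusted p = 0.552).

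Around the butanediol dehydrogenases, 0 of 6 genes of acetoin and butanediol formation passed, with a median of -0.044. ARA1, an aldo-keto reductase, was below 0 in all 6 pairs, between -0.18 and -0.012, with a mean of -0.10 ± 0.024 (limma SE, adjusted p = 0.318). ILV2, acetolactate synthase, was -0.43 in untreated replicate 2 and between -0.060 and 0.078 in the other pairs. Around YIM1, 0 of 9 genes of the DNA damage response passed, with a median of -0.0053. RNR4, a small subunit of ribonucleotide reductase, stood at -0.10 ± 0.029 (limma SE, adjusted p = 0.469) and DUN1, a checkpoint kinase, at -0.052 (limma adjusted p = 0.518). LST1 was on the list of the plasma membrane ATPase and was not analysed here.

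The nearest measured genes on either side of the relatives, 18 in all with BDH1 and BDH2 counted as each other's neighbour, likewise held none that passed in any comparison.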

How the data were processed

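The values deposited by the authors are log2 ratios, 1 per probe and array, with no intensities, so signal over background is unknown. Precision rests on the number of culture pairs and the spread between them. The submitters' processing notes name limma without a version. Background correction, normalisation and log base are not given in the sources used here. The base was inferred from limma's convention and the range of values, and the direction, ∆zta1 over wild type, from titles and from ZTA1. Arrays were matched into pairs by title, because 2 descriptions give another replicate number than their titles. The platform annotation named a gene for 5620 of 6256 probes, all found in a RefSeq table of assembly R64 that served for names and gene order. Probes of 25 genes were averaged, leaving 5594 genes.

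Both arrays of a pair were averaged, which cancels a dye effect. The fit used limma 3.58.1 (lmFit and eBayes, R 4.3.3) on 6 pair means, with a mean for each treatment, 1 common spread and 4 residual degrees of freedom. Tests were two-sided with Benjamini-Hochberg adjustment over all genes, and the 95% intervals use the moderated standard error without adjustment. The scripts were tested on simulated data. The members and lists were chosen with earlier results of these data known. Named were all members, ZTA1, the 2 genes of a list with the largest mean ratio in size, neighbours, and the 3 genes nearest to the member with the smallest p. Alternatives covered scaling, single dye orientations, a 12-array fit, each treatment alone, a replicate block, robust moderation, all probes, a filter on noisy genes, omitted pairs and a threshold of 0.1.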

Additional observations from a re-analysis of the deposited data

How the results depend on the processing

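No relative passed in any comparison with arrays centred or also scaled, with all 12 arrays in 1 fit, with robust moderation, with all probes, at an adjusted p under 0.1, or without any single pair. None passed in untreated cells or under H2O2 with each treatment fitted alone, a fit that gives no value for the difference or the mean. Single dye orientations were the exception. With ∆zta1 in Cy5 alone 2 relatives passed in untreated cells, 1 under H2O2 and 2 over both treatments. With ∆zta1 in Cy3 alone 1 passed for the mean, where AST1 turned to 0.10. Of the 44 genes of other lists, 5, 7 and 17 passed with Cy5 alone in untreated cells, under H2O2 and for the mean, and 6, 4 and 11 with Cy3 alone. One orientation alone leaves the dye effect in the ratio by construction: 2063 of all genes passed for the mean with Cy5 alone and 1477 with Cy3 alone, against 16 with both. In untreated cells these counts were 906 and 562 against 11, and under H2O2 929 and 420 against 12.

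The replicate block gave 0 relatives passing in each comparison and 10, 10, 0 and 13 genes in all. Same-numbered pairs of the 2 treatments had deviations that correlated at -0.014, 0.031 and -0.27 across genes. Those of differently numbered pairs correlated at -0.14 to 0.26. These values gave no sign that replicate numbers pair the treatments, but they cannot show how the cultures were grouped. A filter that removed the 2797 genes with the larger SD between dyes, 5 relatives among them, left 1, 1 and 5 genes passing in untreated cells, under H2O2 and for the mean, and the 12-array fit 30 for the mean; the cause was not tested. Without H2O2 replicate 1 or 3, 7 and 6 genes passed under H2O2, and without untreated replicate 2, 3 genes passed in the test of the difference. Over 538 values of single relatives under the alternatives, 36 had the opposite sign to the reported one, AST1 with Cy3 alone for the mean being the only one of these that passed. Several alternatives, such as the replicate block and robust moderation, leave the estimate itself unchanged. Their values could not change sign, so the share of 36 in 538 does not measure how stable the signs are. With 3 pairs per treatment and no intensities, changes within the intervals given are not excluded. The intervals are not limits of detection. To pass in untreated cells, AST2 would have needed a log2 ratio of 0.20 in size and BDH2 one of 0.58.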
